A study of Mus musculus with 8 samples.

Results

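The genes described here are 8 markers of bile duct cells and of the progenitor cells that arise from or beside the ducts in injured liver: the surface proteins Prom1 and Epcam, the transcription factor Sox9, the secreted protein Spp1, the keratins Krt7, Krt19 and Krt23, and the chloride channel Cftr. They were chosen by name as known markers of these cells, with earlier results of these data known. They are 8 of the 19560 genes with a value on the arrays. A gene's value on an array is the median over the probe sets annotated to that gene alone. Liver tissue of 8 male mice aged 6 weeks was hybridised to Affymetrix mouse gene arrays, 1 array per mouse. In 4 mice both the kinase TAK1 (gene Map3k7) and caspase 8, which death receptors activate to begin apoptosis, had been deleted in liver parenchymal cells, and this group is called Tak1/Casp8. The other 4 mice had the same loss of TAK1 in liver parenchymal cells together with a Rip3-/- genotype, which removes the kinase that carries the necroptosis signal (gene Ripk3), and this group is called Tak1/Rip3. The loss of TAK1 is thus shared by all 8 mice, and no TAK1-intact liver was analysed here. The promoter or Cre line behind the deletions, and whether it acts in bile duct cells, is not stated in the labels. The submitters set the groups side by side to tell the effects of apoptosis and of necrosis on gene expression apart.

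Bile ducts are lined by cholangiocytes, which carry bile out of the liver and add chloride, bicarbonate and water to it. When hepatocytes or ducts are injured, cells with duct markers spread into the lobule, a change called a ductular reaction, and some hepatocytes take on single duct markers such as Sox9 and Spp1. A marker level in whole liver therefore adds up duct cells and any other cell that makes the same RNA. In such bulk samples fewer cells of a type and less RNA per cell cannot be told apart.

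The targeted genes were read first. Casp8 was 10.07, 9.92, 10.07 and 9.81 in Tak1/Casp8 replicates 1 to 4, against 11.28, 11.09, 11.40 and 11.33 in Tak1/Rip3 replicates 1 to 4. It was lower in every Tak1/Casp8 liver, with a log2 difference of -1.31 ± 0.11 SE (limma adjusted p = 0.000123). Ripk3 was 7.99, 7.78, 7.96 and 7.88 in Tak1/Casp8, against 6.36, 7.10, 7.04 and 7.18 in Tak1/Rip3, lower in every Tak1/Rip3 liver (0.98 ± 0.17 SE, limma adjusted p = 0.00782), although its brightest probe set alone differed by -0.036. Map3k7, deleted in both groups, ranged from 9.71 to 10.02 in Tak1/Casp8 and from 9.84 to 10.04 in Tak1/Rip3. The arrays had medians from 8.06 to 8.16 and correlated with each other at 0.975 to 0.993. Tak1/Casp8 replicate 4 and Tak1/Rip3 replicate 2 correlated least with their own groups, and without both of them Prom1 (-1.74, adjusted p = 0.000228) and Spp1 (1.01, adjusted p = 0.0130) still passed. The labels name no litter, cage or batch, so p-values measure the spread between these mice only. None of the 8 markers lies on the chromosome of Casp8, Ripk3 or Map3k7.

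The 8 markers did not move as a block. Livers of the Tak1/Casp8 group had a 3.38-fold lower Prom1 level and a 1.96-fold higher Spp1 level, and the other 6 did not pass the test. All values are log2 intensities, so a difference of 1 is a 2-fold change, and differences are given as the Tak1/Casp8 mean less the Tak1/Rip3 mean. Of the 8 genes, 1 fell and 1 rose at an adjusted p under 0.05 in limma (Benjamini-Hochberg over all 19560 genes), where 6.69% of all genes were called, 2.64% higher and 4.05% lower. An unadjusted p under 0.05 in limma was found for 4 of the 8, and for 21.1% of all genes. The median difference of the 8 was -0.20, beside 0.01 over all genes, and 5 of the 8 differences were negative. Prom1 and Spp1 were also the only members whose groups did not overlap, which 14.6% of all genes met, 6.33% with the higher values in Tak1/Casp8 and 8.3% with the lower ones.

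**Figure D1:**
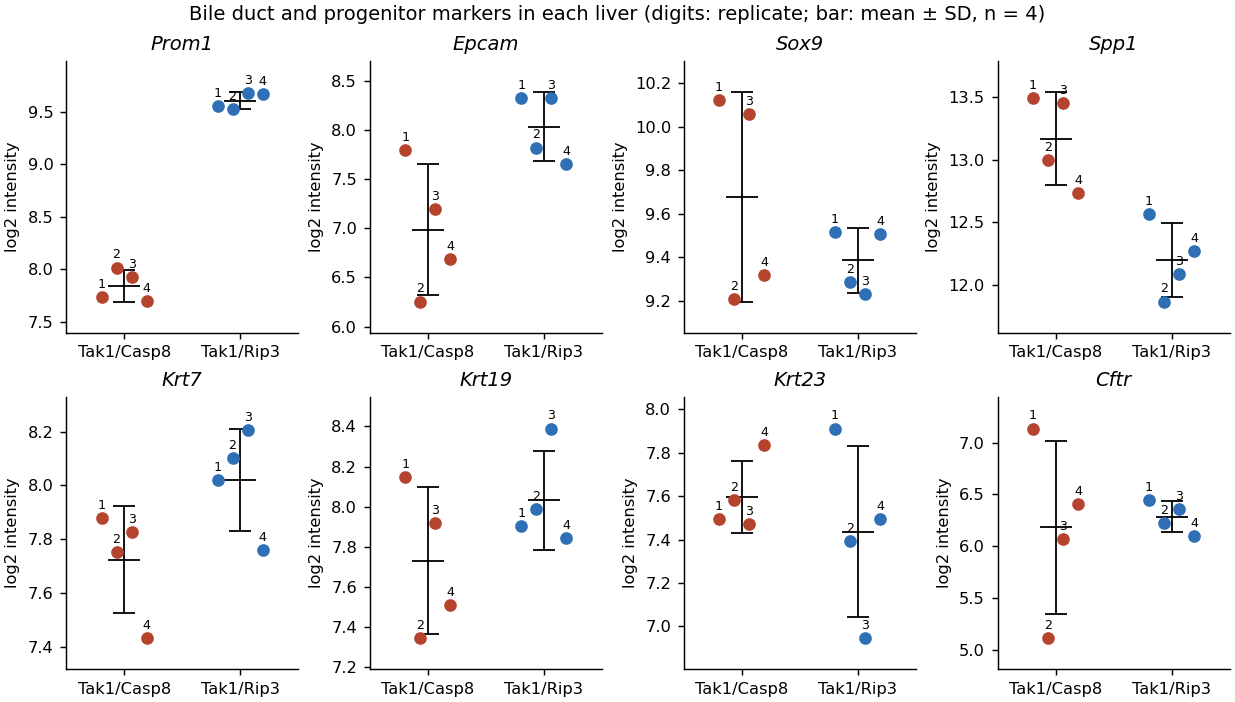
Log2 intensity of each of the 8 markers in each liver, with Tak1/Casp8 at the left and Tak1/Rip3 at the right of each panel; points are single arrays with their replicate number, and bars give the mean and SD of 4 arrays. The groups stand clear of each other for Prom1 and Spp1 and overlap for the other 6 genes, and each panel has its own axis range.

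The sequences just upstream of Prom1 and Spp1 are shown because these were the markers that passed the test, in opposite directions. Each window runs from 250 bases before to 50 bases after an annotated start in RefSeq (GRCm38.p6), written 5′ to 3′ on the strand of the gene, and both genes have 2 such starts. Capitals mark the matches to any of 5 motifs searched on both strands: TEAD (GGAATG), RBPJ (GTGGGAA), AP-1 (TGANTCA), SOX (ACAAAG or ACAATG) and an HNF1 half-site (GTTAAT).
Prom1 chr5:44101687-44101986, minus strand: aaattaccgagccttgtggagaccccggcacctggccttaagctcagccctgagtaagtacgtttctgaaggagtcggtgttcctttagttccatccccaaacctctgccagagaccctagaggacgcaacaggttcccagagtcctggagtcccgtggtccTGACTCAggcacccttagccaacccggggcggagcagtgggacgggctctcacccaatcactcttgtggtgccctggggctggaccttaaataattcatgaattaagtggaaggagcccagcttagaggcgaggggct
Prom1 chr5:44094719-44095018, minus strand: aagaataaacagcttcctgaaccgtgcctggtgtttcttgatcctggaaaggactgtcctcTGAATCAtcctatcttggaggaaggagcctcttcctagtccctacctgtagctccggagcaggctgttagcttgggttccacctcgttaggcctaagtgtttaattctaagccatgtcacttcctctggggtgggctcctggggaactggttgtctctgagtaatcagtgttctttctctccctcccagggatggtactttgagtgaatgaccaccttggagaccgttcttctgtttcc
Spp1 chr5:104434861-104435160, plus strand: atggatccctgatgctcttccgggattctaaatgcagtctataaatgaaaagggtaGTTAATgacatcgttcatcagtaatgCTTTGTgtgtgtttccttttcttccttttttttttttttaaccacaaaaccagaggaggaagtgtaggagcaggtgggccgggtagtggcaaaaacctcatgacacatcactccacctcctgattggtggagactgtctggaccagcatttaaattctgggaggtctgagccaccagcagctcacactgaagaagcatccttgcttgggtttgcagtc
Spp1 chr5:104435942-104436241, plus strand: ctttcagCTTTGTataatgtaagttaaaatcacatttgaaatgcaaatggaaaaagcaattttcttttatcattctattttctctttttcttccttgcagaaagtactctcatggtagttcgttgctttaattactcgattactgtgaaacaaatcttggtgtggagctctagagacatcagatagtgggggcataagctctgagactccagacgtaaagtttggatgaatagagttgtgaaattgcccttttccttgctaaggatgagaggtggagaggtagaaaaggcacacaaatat
Both Prom1 windows held 1 AP-1 match, first base 88 bases before the start in the window at chr5:44101687-44101986 and 189 bases before it in the other, and no other motif. AP-1 letters were found in 7.81% of all 32851 windows of this length. The Spp1 window at chr5:104434861-104435160 held an HNF1 half-site and a SOX match on the opposite strand, which do not overlap each other, and the second window a SOX match alone. These letters occur in 7.10% and 28.6% of all windows. The windows of Epcam, Krt7 and Cftr held none of the 5 motifs and that of Krt23 a SOX match. No window was available for Sox9 or Krt19, so the search covered 6 of the 8 markers. A match is a description of the letters, not of a site in use.

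Prom1 encodes prominin-1 (CD133), a membrane protein of cell protrusions that marks duct and progenitor cells in liver. Its value was 7.74, 8.02, 7.93 and 7.70 in Tak1/Casp8 replicates 1 to 4, against 9.55, 9.53, 9.67 and 9.67 in Tak1/Rip3 replicates 1 to 4. Every Tak1/Casp8 liver lay below every Tak1/Rip3 liver, and a gap of 1.51 separated the groups, while the values within a group lay within 0.32 of each other. The means were 7.85 ± 0.15 in Tak1/Casp8 and 9.60 ± 0.08 in Tak1/Rip3 (SD, n = 4 each), a log2 difference of -1.76 ± 0.10 SE (95% interval -1.98 to -1.53; limma adjusted p = 1.63e-05). By p-value Prom1 was number 6 and by size of the difference number 67 of the 19560 genes. Of its 31 probe sets 30 were lower in the Tak1/Casp8 livers. When all probe sets were tested singly 21 of the 31 were called lower, where 1.63% of all 223771 probe sets were called and 1.09% called lower. The only positive one differed by 0.85 (adjusted p = 0.412), and the brightest by -1.53 (adjusted p = 0.00149).

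Epcam encodes the epithelial cell adhesion molecule, a surface protein of cholangiocytes and progenitors that adult hepatocytes largely lack. It read 7.80, 6.26, 7.20 and 6.69 in Tak1/Casp8 replicates 1 to 4, against 8.33, 7.83, 8.33 and 7.65 in Tak1/Rip3 replicates 1 to 4. The Tak1/Casp8 values were mostly the lower ones, but replicate 1 of that group lay above Tak1/Rip3 replicate 4. With means of 6.99 ± 0.67 in Tak1/Casp8 and 8.04 ± 0.35 in Tak1/Rip3 (SD, n = 4 each), the log2 difference was -1.05 ± 0.30 SE (95% interval -1.71 to -0.39), and it missed the threshold (limma adjusted p = 0.0651). Leaving out replicate 1 of Tak1/Casp8 gave -1.32 (adjusted p = 0.0182), and leaving out replicate 2 of that group gave -0.80 (adjusted p = 0.135).

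The Epcam probe sets fell into separate sets. The 4 with the lowest numbers, 10447384 to 10447387, differed by -0.21 to 0.07, whereas the 7 numbered 10447388 to 10447394 differed by -1.64 to -0.71. This split was seen after the values were read and was not tested. The brightest probe set belongs to the first set and differed by -0.02, so the size of the Epcam difference depends on which probe sets stand for the gene. None of the 11 passed singly in limma, and 5 had an unadjusted p under 0.05, where 15.5% of all probe sets did. Where these probe sets lie in the transcript is not stated in the tables used here.

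**Figure D2:**
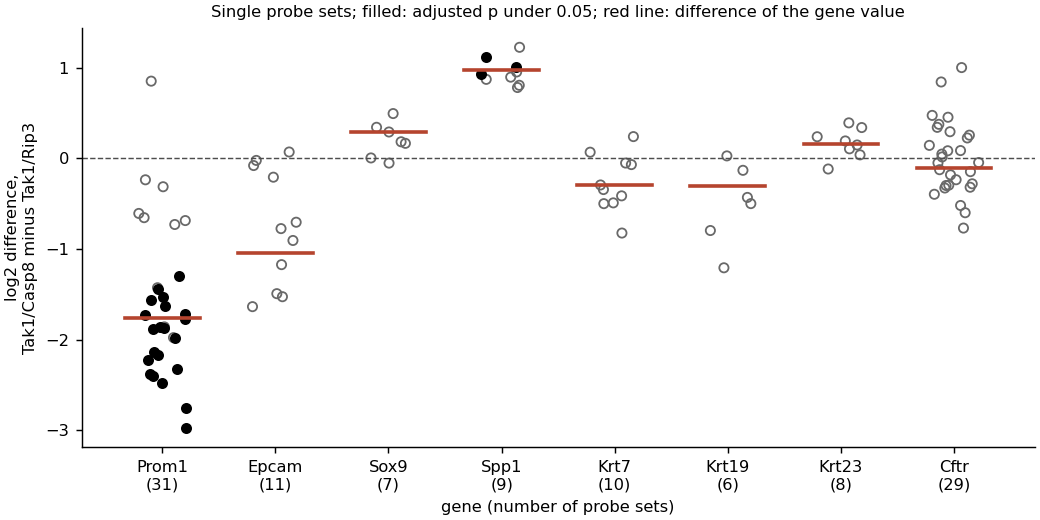
Log2 difference (Tak1/Casp8 minus Tak1/Rip3) of every probe set of the 8 markers, with the number of probe sets under each gene; filled points passed the test over all probe sets and red lines give the difference of the gene value. Nearly all probe sets of Prom1 lie below 0 and all 9 of Spp1 above it, those of Epcam fall in a set near 0 and a set below it, and those of Cftr spread to both sides.

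Sox9 is the transcription factor that marks duct cells from the embryo onwards and appears in hepatocytes near the portal vein after injury. Its values were 10.12, 9.21, 10.06 and 9.32 in Tak1/Casp8 replicates 1 to 4, against 9.52, 9.28, 9.23 and 9.51 in Tak1/Rip3 replicates 1 to 4. Replicates 1 and 3 of Tak1/Casp8 stood above all 4 Tak1/Rip3 livers, and replicate 2 stood below them. The means were 9.68 ± 0.48 in Tak1/Casp8 and 9.39 ± 0.15 in Tak1/Rip3 (SD, n = 4 each), and the log2 difference of 0.29 ± 0.21 SE had an interval from -0.17 to 0.75 (limma adjusted p = 0.470). Of its 7 probe sets 6 differed by more than 0 and none passed.

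Spp1 encodes osteopontin, a secreted matrix and cytokine-like protein that binds integrins and CD44 and is made by cholangiocytes and by macrophages. It read 13.49, 12.996, 13.46 and 12.73 in Tak1/Casp8 replicates 1 to 4, against 12.57, 11.87, 12.09 and 12.27 in Tak1/Rip3 replicates 1 to 4. All 4 Tak1/Casp8 values were the higher ones, with only 0.16 between the lowest of them and the highest Tak1/Rip3 value. The means of 13.17 ± 0.37 in Tak1/Casp8 and 12.20 ± 0.30 in Tak1/Rip3 (SD, n = 4 each) differed by 0.97 ± 0.20 SE (95% interval 0.53 to 1.41; limma adjusted p = 0.0166). All 9 probe sets were higher, by 0.78 to 1.23. Of the 9, 3 passed singly, where 0.542% of all probe sets were called higher. With variances taken per group and not moderated, Spp1 did not pass (adjusted p = 0.128).

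Macrophages can make Spp1 as well as duct cells, so their markers are given beside it. Of 9 measured markers of Kupffer cells and macrophages 1 rose, the haemoglobin scavenger receptor Cd163 (1.98 ± 0.15 SE with 4 livers per group; limma adjusted p = 0.000100). Over all genes 2.64% were called higher. The median difference of the 9 was 0.20. The mean level of the list ranged from 9.46 to 9.91 over the Tak1/Casp8 livers and from 9.21 to 9.49 over the Tak1/Rip3 livers. Cd163 is part of this mean and had the largest difference of the 9, of which 7 were positive and 2 negative. The integrin subunit Itgam differed by 0.69 (-0.28 with its brightest probe set) and the lysosomal protein Cd68 by -0.41, and neither passed (adjusted p = 0.0799 and 0.136). The part of macrophages in the Spp1 difference was not tested.

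Keratins 7 and 19 are the filament proteins by which pathologists recognise bile ducts, and keratin 23 is a type I keratin described in liver stress and ductular reactions. None of the 3 passed. Krt7 read 7.88, 7.75, 7.83 and 7.43 in Tak1/Casp8 replicates 1 to 4, against 8.02, 8.10, 8.20 and 7.76 in Tak1/Rip3 replicates 1 to 4. Of the Tak1/Rip3 livers, 3 lay above all of Tak1/Casp8, while replicate 4 lay inside their range. The difference of -0.30 ± 0.13 SE (95% interval -0.59 to -0.01) had an unadjusted p of 0.0442 in limma and an adjusted p of 0.221.

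Krt19 gave 8.15, 7.35, 7.92 and 7.51 in Tak1/Casp8 replicates 1 to 4, against 7.90, 7.99, 8.39 and 7.84 in Tak1/Rip3 replicates 1 to 4. Replicates 2 and 4 of Tak1/Casp8 lay below all Tak1/Rip3 livers and replicates 1 and 3 among them, and the difference of -0.30 ± 0.19 SE did not pass (95% interval -0.71 to 0.11; limma adjusted p = 0.400). Its 6 probe sets differed by -1.21 to 0.03. Krt23 gave 7.50, 7.58, 7.47 and 7.83 in Tak1/Casp8 replicates 1 to 4, against 7.91, 7.39, 6.95 and 7.49 in Tak1/Rip3 replicates 1 to 4. Here the Tak1/Rip3 livers were the more spread, and the difference was 0.16 ± 0.18 SE (95% interval -0.24 to 0.56; limma adjusted p = 0.672), or -0.0033 without Tak1/Rip3 replicate 3. The intervals of Krt19 and Krt23 leave room for changes in either direction.

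Cftr encodes the chloride channel on the bile side of cholangiocytes, which hepatocytes lack. Its mean lay under the lower quartile of all probe sets in both groups, and so did 16 of its 29 probe sets. It read 7.13, 5.12, 6.07 and 6.41 in Tak1/Casp8 replicates 1 to 4, against 6.45, 6.23, 6.36 and 6.10 in Tak1/Rip3 replicates 1 to 4. The highest and the lowest value of all 8 livers were thus both in Tak1/Casp8, and the Tak1/Rip3 livers lay within 0.35 of each other. The means of 6.18 ± 0.84 in Tak1/Casp8 and 6.28 ± 0.15 in Tak1/Rip3 (SD, n = 4 each) differed by -0.10 ± 0.33 SE (95% interval -0.84 to 0.64; limma adjusted p = 0.902). With replicate 2 of Tak1/Casp8 left out the sign turned (0.25, adjusted p = 0.599). In 24 of the 29 probe sets Tak1/Casp8 replicate 1 was the highest array of its group, and in 15 replicate 2 was the lowest.

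**Figure D3:**
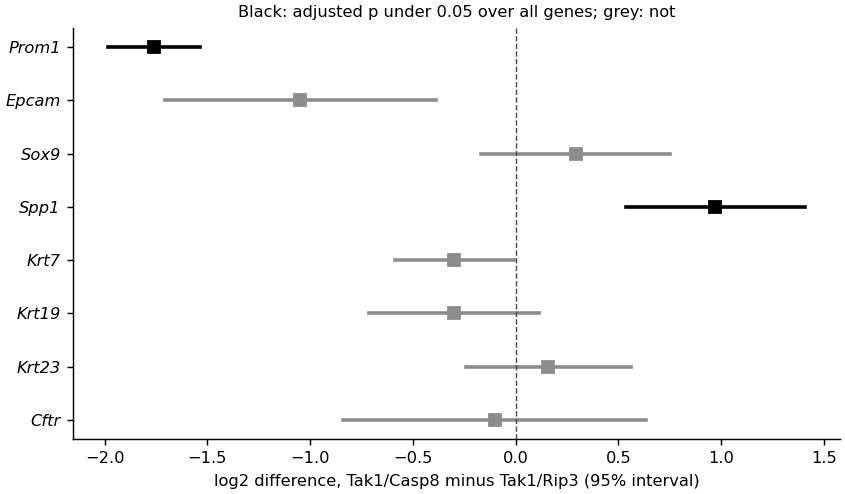
Log2 difference of each marker, Tak1/Casp8 minus Tak1/Rip3 (squares), with its 95% interval from limma (lines, not adjusted for the number of genes); black marks genes with an adjusted p under 0.05. Prom1 lies at -1.76 and Spp1 at 0.97, and the interval of Cftr, from -0.84 to 0.64, is the widest of the 8.

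The Tak1/Casp8 livers differed among themselves in these markers more than the Tak1/Rip3 livers did for 7 of the 8 genes, all but Krt23, where 52.4% of all genes had the larger SD in Tak1/Casp8. The ratio of the SDs was 5.50 for Cftr, 3.23 for Sox9, 1.97 for Prom1, 1.90 for Epcam, 1.49 for Krt19, 1.24 for Spp1 and 1.05 for Krt7, beside a median of 1.04 over all genes. In Tak1/Casp8 replicate 1, 6 of the 8 genes lay above the mean of their group, by a median of 0.37 over the 8, and in replicate 3 also 6, by a median of 0.15. In replicates 2 and 4 of that group 6 of the 8 lay below, by medians of -0.28 and -0.25. Over all genes the same medians lay between -0.02 and 0.06. This pattern was not particular to the duct markers. In Tak1/Casp8 replicates 1 to 4 the collagen gene Col1a1 read 10.91, 10.33, 10.96 and 9.76. The macrophage marker Cd68 read 10.77, 10.32, 10.78 and 10.18 there. The SD of Col1a1 was 0.56 in Tak1/Casp8 and 0.14 in Tak1/Rip3. Other genes went otherwise, such as the endothelial marker Lyve1 (8.81, 8.72, 8.36 and 9.03). Epcam, Sox9 and Krt19 had the same order of arrays, with replicate 1 highest, then 3, 4 and 2. The share of all genes with this order was not counted. Prom1 had another order and the narrowest range of the 8 in Tak1/Casp8. In the Tak1/Rip3 livers the median deviations lay between -0.07 and 0.15.

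**Figure D4:**
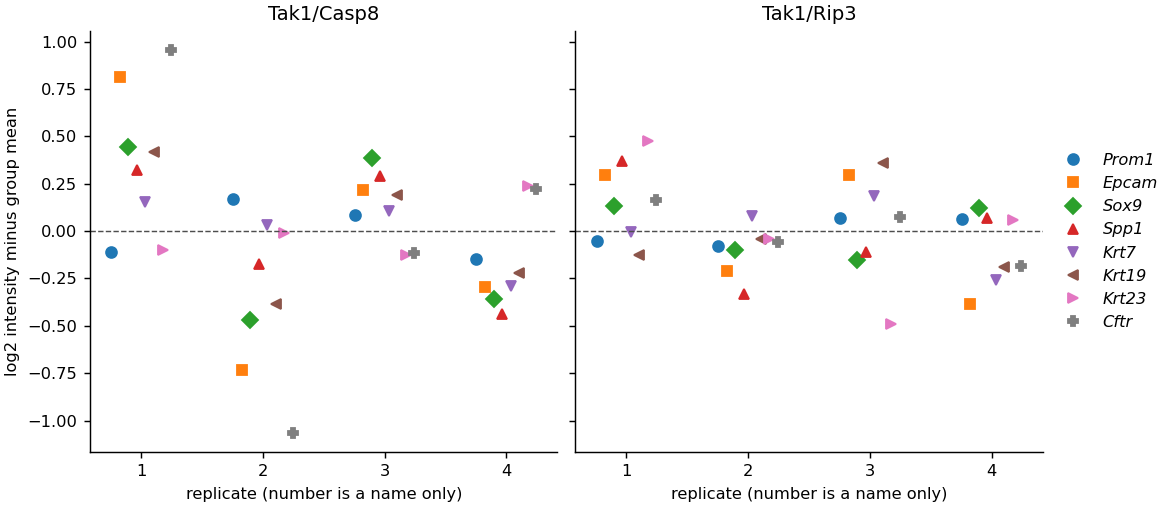
Deviation of each marker from the mean of its own group in each liver, in log2 intensity, with Tak1/Casp8 at the left and Tak1/Rip3 at the right; symbols stand for genes and the dashed line is the group mean. Tak1/Casp8 replicate 1 has Cftr and Epcam farthest above the mean and replicate 2 has them farthest below, while Prom1 stays near 0 in all 8 livers.

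After subtraction of the group means, Pearson's r between pairs of these genes over the 8 arrays ranged from -0.78 for Prom1 and Cftr to 0.88 for Epcam and Krt19, with a median of 0.26 over the 28 pairs, of which 19 were positive. Epcam and Cftr had an r of 0.84, as did Sox9 and Spp1. These values describe 8 arrays that share their group means, and no test was made. Among all genes with at least 3 probe sets, those most like Prom1 by this measure over the 8 arrays were Ddx50 (r = 0.97) and Map3k6 (r = 0.95), and those most like Spp1 were Zfp90 and Chst14 (r = 0.99 each). Among 19560 genes and 8 arrays, high values of r are found for some gene in any case.

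Genes listed for duct cells outside the 8 also moved in both directions, though not all of them are made by these cells alone. Over 3 lists of duct genes (transcription factors, transport, and other surface or keratin markers), 40 genes had a value, of which 6 fell and 2 rose, or 20%, where 6.69% of all genes were called, 4.05% lower and 2.64% higher. The median difference of the 40 was -0.14. These lists were chosen with earlier results of these data known. Their share of called genes is a description, and an excess was not tested. Of 10 measured duct transcription factors none passed in limma, 5 had an unadjusted p under 0.05, where 21.1% of all genes did, and 3 were called lower when the mean over probe sets stood for the gene. The epithelial factors Ehf and Grhl2 differed by -0.85 and -0.46, and Onecut1, which directs duct formation, by -0.56 (adjusted p = 0.0656, 0.0760 and 0.0899). Grhl2 differed by 0.093 with its brightest probe set.

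Duct transport genes changed most clearly in a chloride channel and a bile acid carrier. Of 12 measured, 3 fell and 1 rose, with a median of -0.04. Ano1, the calcium-activated chloride channel, read 6.78, 6.61, 6.66 and 6.84 in Tak1/Casp8 replicates 1 to 4, against 8.10, 7.87, 8.36 and 8.22 in Tak1/Rip3 replicates 1 to 4. That is a gap of 1.03 between the groups and a 2.67-fold lower value in Tak1/Casp8 (-1.42 ± 0.12 SE with 4 livers per group; limma adjusted p = 0.000140). Slc10a2, the apical sodium-dependent carrier by which cholangiocytes take bile acids back from bile, read 10.33, 10.68, 10.20 and 10.89 in Tak1/Casp8, against 9.27, 9.41, 9.67 and 9.45 in Tak1/Rip3. It was 2.11-fold higher (1.08 ± 0.16 SE with 4 livers per group; limma adjusted p = 0.00379), with no overlap. The carbonic anhydrase Car2 fell by 0.65 and the water channel Aqp4 by 0.63 (limma adjusted p = 0.0189 and 0.0276). Both calls were lost when any 1 of several arrays was left out, while the differences changed little. Car2 then stayed between -0.75 and -0.55 and Aqp4 between -0.74 and -0.53. Car2 no longer passed without Tak1/Casp8 replicate 2 or without Tak1/Rip3 replicate 1, 3 or 4 (adjusted p from 0.0509 to 0.0638), and Aqp4 without Tak1/Casp8 replicate 1, 2 or 3 or Tak1/Rip3 replicate 2, 3 or 4 (0.0506 to 0.0774). With its brightest probe set Aqp4 differed by 0.02.

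Of 18 other duct and progenitor markers 3 fell and 1 rose, with a median of -0.15. The epithelial mucin Muc1 read 7.61, 6.48, 7.14 and 6.71 in Tak1/Casp8 replicates 1 to 4, against 8.59, 8.56, 8.78 and 7.96 in Tak1/Rip3, and was 2.80-fold lower (-1.49 ± 0.25 SE with 4 livers per group; limma adjusted p = 0.00691). With its brightest probe set Muc1 differed by -0.18 (adjusted p = 0.487). Keratin 20 (Krt20), a keratin of mature gut epithelium, was 2.54-fold lower (-1.34 ± 0.19 SE, adjusted p = 0.00293) and the laminin-binding integrin Itga6 2.15-fold lower (-1.11 ± 0.23 SE with 4 livers per group; limma adjusted p = 0.0199). Itga6 missed the threshold without Tak1/Casp8 replicate 2, Tak1/Rip3 replicate 3 or Tak1/Rip3 replicate 4 (adjusted p from 0.0556 to 0.0615). Lcn2, the iron-siderophore binding protein lipocalin 2, which hepatocytes also make in inflammation, was 1.79-fold higher (0.84 ± 0.14 SE, limma adjusted p = 0.00620). With its brightest probe set Lcn2 did not pass (0.33, adjusted p = 0.0929). The array order of Epcam, Sox9 and Krt19 in the Tak1/Casp8 livers was also that of Muc1, Cd24a, Ehf and the macrophage marker Marco. It was shared by Dmbt1, a mucin-like secreted protein of epithelia, which read 11.03, 5.67, 10.46 and 7.87 in Tak1/Casp8 replicates 1 to 4, against 8.47, 7.36, 8.83 and 8.47 in Tak1/Rip3. Cd24a, Ehf, Marco and Dmbt1 were picked out for this order after their values were seen. The Dmbt1 difference of 0.47 ± 0.98 SE did not pass.

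**Figure D5:**
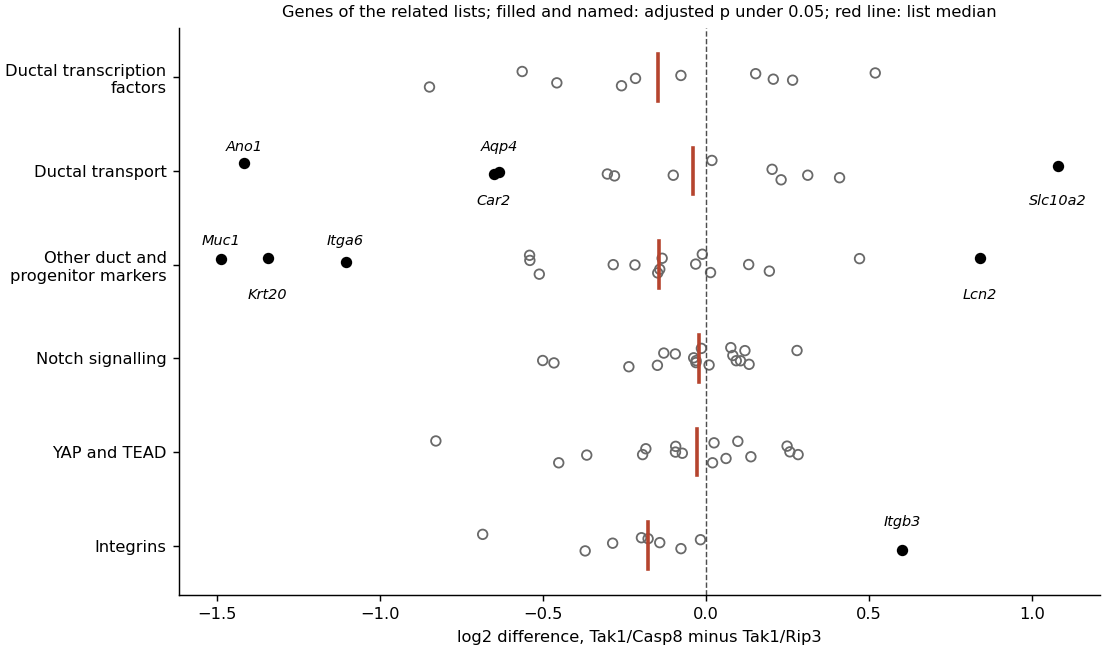
Log2 difference (Tak1/Casp8 minus Tak1/Rip3) of every measured gene in 6 related lists, 1 list per line; filled and named points have an adjusted p under 0.05, and red lines are list medians. Called genes lie on both sides of 0 in the duct transport and duct marker lists, and none was called in the transcription factor, Notch or YAP and TEAD lists.

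Notch signals from portal cells turn hepatoblasts and some hepatocytes towards the duct fate. Of 18 genes of the pathway none passed in limma and 3 had an unadjusted p under 0.05 (21.1% of all genes did), with a median difference of -0.02, and the ligand Dll1 (-0.50, adjusted p = 0.123) and the target Hey1 (-0.47, adjusted p = 0.199) had the smallest adjusted p. YAP and its TEAD partners promote the same fate when the Hippo kinases are off. Of 16 such genes none passed in limma and 3 had an unadjusted p under 0.05, against the same 21.1%, with a median of -0.03, and the target Ankrd1 differed by -0.83 (adjusted p = 0.0619). Ankrd1 passed in 7 of 21 alternatives and Dll1 in 2 of 21. Of 9 integrin and CD44 genes, some of which bind osteopontin, the beta 3 subunit Itgb3 rose (0.60 ± 0.14 SE with 4 livers per group; limma adjusted p = 0.0258), and the list median was -0.18. Over all genes 2.64% were called higher. Itgb3 did not pass without Tak1/Casp8 replicate 1 or 2 or Tak1/Rip3 replicate 1 or 4 (adjusted p from 0.0606 to 0.0789), nor with its brightest probe set (0.23, adjusted p = 0.541).

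Markers of other cells in the tissue are given beside these results, and their counts at an unadjusted p under 0.05 stand against 21.1% of all genes. Their counts of called genes stand against 6.69% of all genes, 4.05% lower and 2.64% higher. Of 10 hepatocyte markers none passed in limma and 2 had an unadjusted p under 0.05 (median 0.03), and their mean level lay between 13.07 and 13.15 in the Tak1/Casp8 livers and between 12.95 and 13.11 in the Tak1/Rip3 livers. Tat (0.50, adjusted p = 0.0652) and Pck1 (0.49, adjusted p = 0.0760) came closest in limma and passed in 8 of 22 alternatives each. Of 10 stellate cell and myofibroblast markers 2 fell, the retinol esterifying enzyme Lrat (-0.59) and Reln (-0.65), with a median of -0.38, and mean levels ranged from 9.22 to 9.87 in Tak1/Casp8 and from 9.85 to 10.18 in Tak1/Rip3. Of the 10, 4 had an unadjusted p under 0.05 in limma. Reln did not pass without Tak1/Casp8 replicate 2 or any 1 of the Tak1/Rip3 livers (adjusted p from 0.0561 to 0.0944). Of 5 markers of the mesothelium, which shares epithelial genes with ducts, none passed in limma, and 0 had an unadjusted p under 0.05 (median -0.12). Nor did any of 10 endothelial markers (median 0.01, 2 with an unadjusted p under 0.05) or of 9 T and NK cell markers (median -0.14, 3 with an unadjusted p under 0.05). Of 7 neutrophil markers Cxcr2 and Csf3r rose (median 0.26), though Csf3r did not pass when any 1 of the 8 arrays was left out (adjusted p from 0.0644 to 0.139), and of 6 B and plasma cell markers Jchain rose and Cd79a (-1.38) and Ms4a1 (-1.11) fell (median -0.15). An unadjusted p under 0.05 in limma was found for 3 of the 7 and for 4 of the 6. Cd79a had means of 5.09 in Tak1/Casp8 and 6.47 in Tak1/Rip3, and Ms4a1 of 4.89 and 6.00. These means lay under the lower quartile of all probe sets in both groups. With the brightest probe set Cd79a (-0.44, adjusted p = 0.261), Ms4a1 (-0.16, adjusted p = 0.644) and Csf3r (0.083, adjusted p = 0.807) did not pass. Ms4a1 also did not pass with the brighter probe sets (-0.64, adjusted p = 0.0920) or those above the lower quartile (-0.27, adjusted p = 0.339). The part of these cells in the differences of the duct markers was not tested.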

How the data were processed

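Liver RNA of 8 mice was hybridised to Affymetrix mouse gene arrays after amplification and terminal labelling, per the labels' protocols. The deposited values are log2 intensities per probe set, made by the authors with RMA, per the submitters' processing notes; no software version is named there. RMA can understate differences of dim genes. Single dim probe sets also scattered widely within a group here, as 1 of Prom1 did from 2.73 to 6.45 over the Tak1/Casp8 livers. Differences of dim probe sets can thus be off in either direction. Of 223771 probe sets, 206316 carried 1 gene symbol and were used, 3734 carried several and 13721 none. The median over a gene's probe sets gave 19560 genes, of which 2571 had old symbols updated through RefSeq (GRCm38.p6).

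Groups were compared with limma 3.58.1 in R 4.3.3 (lmFit, eBayes), and p-values were adjusted by Benjamini-Hochberg over all genes, with calls under 0.05. No filter was set on low values. Alternatives changed the scaling, the summary over probe sets, the filter, the variance model, the threshold and the arrays included. On simulated data with this design of 19560 genes, 93.9% of 66 genes changed by a log2 difference of 1 were called, and 36.9% of 65 genes changed by 0.5. A further 69 genes were changed by 2. The simulation drew independent normal noise for each gene and changed fewer genes than were called here. Its shares therefore need not hold for the real data. The number of arrays limits the precision. From each list the text draws mainly on the genes called and the 3 with the smallest adjusted p. Replicate numbers follow the order of the samples and pair none of them. The members, lists and tests were chosen with earlier results of these data known.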

Additional observations from a re-analysis of the deposited data

Results flagged for a closer look

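None of the 8 markers had an array standing far from the rest of its group by Dixon's test for groups of 4. Among the other genes examined, 6 of 94 sets of 4 values had 1 such array, and chance alone gives about 1 in 20. Lcn2 was 13.15 in Tak1/Casp8 replicate 4, below the 13.61 to 13.70 of the other 3 livers of that group. Ankrd1 was 7.03 in Tak1/Casp8 replicate 3, above the 6.52 to 6.58 of the others. Cd79a was 4.70 in Tak1/Casp8 replicate 2, below 5.20 to 5.23, and Nkg7, a protein of cytotoxic granules, was 6.90 in the same liver, below 7.24 in the others. Hey1 was 7.55 in Tak1/Rip3 replicate 3, below 7.98 to 8.03. Ripk3 was 6.36 in Tak1/Rip3 replicate 1, below 7.04 to 7.18.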

How the results depend on the processing

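Prom1 kept its direction and its call in all 22 alternatives, with differences from -1.82 to -1.48 and adjusted p from 2.62e-06 to 0.0237. Spp1 kept its direction (0.78 to 1.12) and lost its call with unmoderated separate variances (0.97, adjusted p = 0.128) and at a threshold of 0.01 (0.97, adjusted p = 0.0166). Epcam passed with genes under the 30th percentile left out (-1.05, adjusted p = 0.0463), at a threshold of 0.10 (-1.05, adjusted p = 0.0651) and without Tak1/Casp8 replicate 1 (-1.32). Its difference was -0.02 with the brightest probe set and ranged from -1.32 to -0.80 when 1 array was left out. Sox9 (0.14 to 0.49) and Krt19 (-0.55 to -0.13) kept their sign and were never called. Krt7 turned to 0.24 with the brightest probe set. Krt23 turned to -0.0033 without Tak1/Rip3 replicate 3 and reached 0.32 when another array was left out. Cftr turned to 0.0012 with the mean over probe sets, 0.22 with the brightest and 0.25 without Tak1/Casp8 replicate 2, and was as low as -0.42 when another array was left out. The cause of these turns was not tested. The 8 markers had 1 call with separate variances and 1 at 0.01, and 2 to 3 with 1 array left out.

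The count of all genes called, 1308, was 759 with the brightest probe set, 115 with separate variances, 406 at 0.01 and 2130 at 0.10. It ranged from 706 to 1347 with 1 array left out, with 765 when Tak1/Casp8 replicate 2 was left out, and 706 and 737 when replicate 1 and when replicate 4 of Tak1/Rip3 were. With separate variances 1 duct transport gene was called lower, and 0 of the other duct and progenitor markers were called. With the brightest probe set Lcn2 (0.33, adjusted p = 0.0929), Muc1, Itgb3 (0.23, adjusted p = 0.541), Cd79a (-0.44, adjusted p = 0.261), Ms4a1 (-0.16, adjusted p = 0.644) and Csf3r (0.083, adjusted p = 0.807) lost their calls. Among genes outside the 8, signs turned for Map3k7 (0.094 with the mean and 0.088 with the brightest probe set), Krt14 (0.066 with the mean, 0.12 with the brightest, 0.13 with the brighter probe sets), Ripk3 (-0.036), Itgam (-0.28), Grhl2 (0.093) and Aqp4 (0.022) with the brightest, Ncr1 (0.012 with the brightest, 0.073 with the brighter and 0.012 with probe sets above the lower quartile) and Itgb6 (0.14 with probe sets above the lower quartile). Some named genes outside the 8 gained a call. Tat and Pck1 did so in 8 of 22 alternatives each, Ankrd1 and Itgam in 7 of 21 each. Ehf passed in 6 of 21 and Onecut1 in 5 of 22. Acta2 and Lyve1 (2 of 22 each), Dll1 and Itgb8 (2 of 21 each) and Grhl2 (2 of 20) passed less often. The alternatives include the threshold of 0.10. A filter at the 50th percentile left out Epcam, Krt23 and Cftr, and that at the 30th left out Cftr. The use of probe sets above the lower quartile and the omission of both least correlated arrays were chosen after seeing the data. With the first Aqp4 lost its call (-0.50, adjusted p = 0.0622), and with the second Reln (-0.45, adjusted p = 0.0724), Cxcr2 (0.74, adjusted p = 0.0521), Csf3r (0.36, adjusted p = 0.108) and Itga6 (-0.96, adjusted p = 0.0507) lost theirs. No paired analysis was possible because the numbers in the sample titles are not shared between the groups. No background level was used here, so which dim probe sets, such as 16 of the 29 of Cftr under the lower quartile, carry signal was not tested.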
